A study of Mus musculus with 36 samples.

Results

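The comparison set PKP4-KO keratinocytes against wild-type (WT) keratinocytes after 24 h in high calcium medium (HCM) and covered every gene with enough reads, beyond the actin and adhesion genes. It was chosen by the labels alone, as the 3 libraries labelled PKP4-KO and the 3 labelled WT for that time and medium, which makes 6 of the 36 libraries deposited. The cells were primary keratinocytes, the epithelial cells of the epidermis, taken from newborn mouse pups of genotype Pkp4-wildtype or Pkp4-knockout. The knockout allele lacks a coding exon in every cell of the mouse, and WT and knockout cells came from different pups. Both groups grew on collagen in the same medium with insulin, EGF and cholera toxin, to which calcium was added for 24 h. The labels do not say whether the 3 libraries of a group were separate pups or separate cultures. The edgeR p-values rest on the spread between libraries of the same group, which may therefore be technical. This spread was estimated over all 36 libraries in 12 groups, and not from the 6 libraries compared alone. The Rescue cells of the same study were PKP4-KO cells given human PKP4 tagged with GFP by a lentivirus. Apart from that estimate of the spread, they and the other culture conditions appear only where they were set beside this comparison.

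PKP4 is a protein of the p120-catenin family that sits at cell-cell contacts and takes part in signalling to the actin cytoskeleton. Mouse keratinocytes kept in low calcium medium (LCM) stay undifferentiated and divide. Added calcium brings cadherins together at new junctions, and the cells then leave the cell cycle step by step and switch from basal keratins to the proteins of the upper epidermis, which end in the cornified envelope, a sheath of cross-linked protein that replaces the cell membrane. A transcriptome taken 24 h after the calcium switch therefore catches division, differentiation and their metabolic support at once.

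The totals of the 6 libraries lay between 13794211 and 20732407 counts, and levels are given as CPM, the counts scaled to library size with TMM factors, on which 3 counts in a library are worth 0.126 to 0.222 CPM. Pkp4 itself had 9.65, 8.24 and 8.42 CPM in PKP4-KO and 48.9, 41.6 and 41.5 CPM in WT. The PKP4-KO libraries were at 19.9% of WT on average, without overlap (exact permutation test, two-sided, p = 0.1, the smallest that 3 against 3 libraries allow). In a principal component analysis the first component (63.7% of the variance) separated the genotypes. The second (23.9%) set PKP4-KO 3 and WT 2 (-59.6 and -71.6) apart from the other 4 libraries (15.6 to 44.5). In both of these libraries short genes were high and long genes low, and the median deviation of 76 ribosomal protein genes was 1.02 and 1.26 on the log2 scale. The counts of genes called, over all genes and per list, are therefore also given without this pair of libraries.

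The defining keratinocyte genes were all present, with a summed level of 42830 to 51710 CPM in PKP4-KO and 38660 to 47210 CPM in WT. Singly, 5 of these 10 genes were higher and 3 lower in PKP4-KO by the test given below, with log2 fold changes from -3.63 to 4.02. Of 10 fibroblast markers, 6 stayed at 3 counts or fewer in all 6 libraries, and all 10 summed to 0.167 to 0.606 CPM in PKP4-KO and 2.14 to 4.84 CPM in WT. Of 12 immune cell markers 7, of 9 melanocyte markers 6 and of 8 endothelial markers 4 stayed at or under 3 counts in every library. Muscle and adipocyte markers summed to 1.38 to 2.29 CPM in PKP4-KO and 2.89 to 6.39 CPM in WT, and markers of oral and glandular epithelium to 158.8 to 226.8 CPM and 283 to 309 CPM. Merkel cell and neural markers summed to 28.3 to 38.4 CPM in PKP4-KO and 17.7 to 52.9 CPM in WT. The part of any of these cell types in the results was not tested. Xist, the RNA that coats the inactive X chromosome of female cells, had 0.373, 0.126 and 0.222 CPM in PKP4-KO and 71.3, 54.8 and 35.5 CPM in WT, whereas the Y-linked genes Ddx3y, Uty, Kdm5d and Eif2s3y were at 0 to 0.0739 CPM in all 6 libraries. Genotype and every other difference between the cultures, such as their X chromosomes and their pups, cannot be told apart in this design.

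Of 15114 genes tested, 6472 (42.8%) passed an adjusted p of 0.05 in edgeR's quasi-likelihood test. Of these, 3122 (20.7% of genes tested) were higher and 3350 (22.2%) lower in PKP4-KO, and these genes are called higher or lower from here on. Of the genes named below, Tgm3, Hmox1, Epgn, Axin2, Id1, Sema4c, Mmp3, Vim, Aldh1a3 and Peg3 did not pass without PKP4-KO 3 and WT 2. Without PKP4-KO 3 and WT 2, 5471 genes were called, 82.2% of the 6472 were among them, and 0 had the opposite sign. The changes were large: 1574 of the genes called higher and 2151 of those called lower moved by more than 2-fold, and 382 and 641 by more than 8-fold. Genes called higher took 25.2 to 30.2% of the counts in the PKP4-KO libraries and 13.3 to 16.4% in the WT libraries. For genes called lower the shares were 11.9 to 15.3% in PKP4-KO and 25.5 to 33% in WT. The median log2 fold change of all genes tested was 0.0, so that a list of genes can be read against a centre at 0. Values in parentheses after a gene name are its log2 fold change, PKP4-KO minus WT. Where libraries of the groups are said not to overlap, this describes genes named largely for their large changes. The share of all genes without overlap is not given here.

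**Figure D1:**
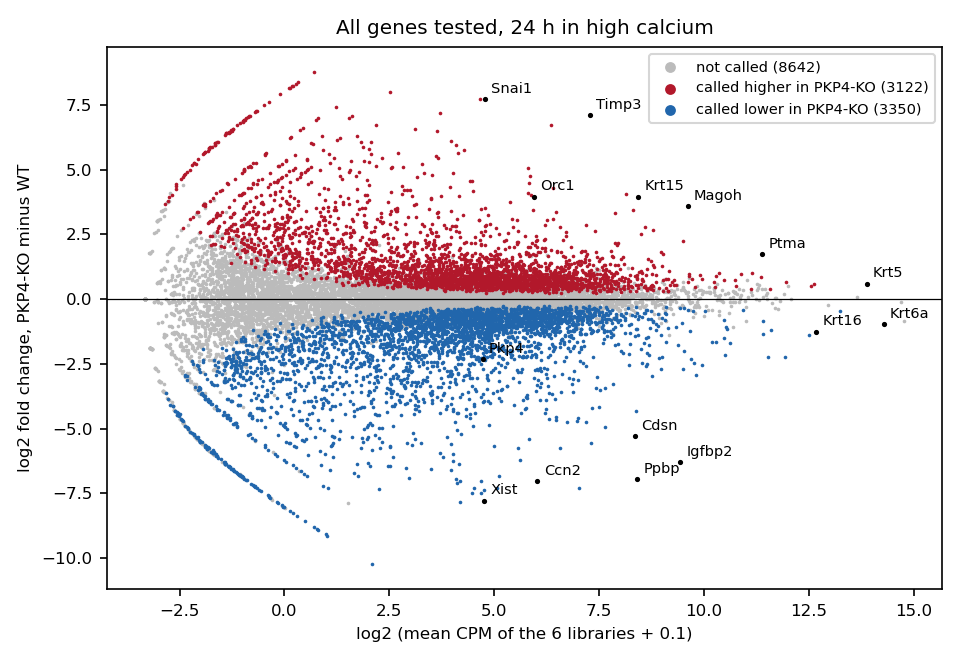
Each point is a gene; the x axis is its mean level (log2 of CPM + 0.1) over the 6 libraries and the y axis its log2 fold change, PKP4-KO minus WT. Calls in both directions, 3122 higher in red and 3350 lower in blue, run over the whole range of levels, and the named keratins Krt6a, Krt16 and Krt5 lie among the most abundant genes.

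Counted in CPM, the largest losses were in the keratins of stressed and activated epidermis. Krt6a had 13950, 14160 and 12500 CPM in PKP4-KO and 26250, 26230 and 26270 CPM in WT, and Krt16 had 4629, 3728 and 3197 CPM in PKP4-KO and 8992, 9309 and 9221 CPM in WT. The libraries of the groups did not overlap for either gene. Per kilobase of transcript, Krt6a stood at 5597 CPM per kb in PKP4-KO and 10850 in WT, and Krt5, the basal keratin, at 8277 and 5452. The order of these keratins by level was thus reversed between the genotypes. The other large losses were Krt6b, Krt17, the glutathione transferase Gsto1, the annexins Anxa1 and Anxa8, the desmosomal p53 target Perp, the keratinocyte surface protein Ly6d and the small heat shock protein Hspb1. Of these, Krt17 and Ly6d were not called without PKP4-KO 3 and WT 2 (edgeR adjusted p = 0.11 and 0.12). The largest gains were in Krt5, the chromatin and proliferation protein Ptma (3781, 3968 and 4642 CPM in PKP4-KO and 1100, 1464 and 1156 CPM in WT), the ribosomal genes Rps2 and Rpsa, the translationally controlled Tpt1, the glycolytic enzymes Pkm and Ldha, the exon junction protein Magoh and the sorting nexin Snx5. A mitochondrial-like pseudogene, Gm28437, was also among them, and it, Rps2, Rpsa, Tpt1, Ptma and Gapdh share sequence with processed copies, so that their counts are uncertain.

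Among protein-coding genes with at least 10 CPM in the higher group, the largest changes in both directions were far from the bulk. On the lower side stood the chemokine precursor Ppbp (6.06, 4.52 and 5.84 CPM in PKP4-KO and 684, 752 and 587 CPM in WT), the peroxiredoxin Prdx4, the myelin protein Pmp22, the glycosyltransferase Gcnt3, the actin-binding Ablim3 and the urothelial plaque protein Upk1b, with log2 fold changes of -6.95, -7.48, -7.36, -7.03, -7.02 and -6.95. On the higher side stood Timp3, an inhibitor of metalloproteinases, with 249, 326 and 352 CPM in PKP4-KO and 2.63, 1.65 and 2.4 CPM in WT. Pclaf, a partner of PCNA at replication forks, had 135, 193 and 156 CPM in PKP4-KO and 1.6, 1.36 and 1.58 CPM in WT. The PKP4-KO libraries lay far above the WT libraries for both genes, with fitted folds of 137 and 106. The ciliary protein Evc2 (6.58), the transcription factor Dmrta2 (5.96) and the inflammatory caspase Casp1 (5.77) were also among the 12 genes with the largest positive log2 fold change.

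Most genes of DNA replication were higher in PKP4-KO. Of 39 tested genes for origin licensing and DNA synthesis, 33 were called higher and 1 lower, with a median log2 fold change of 1.0, against 20.7% called higher over all genes. Without PKP4-KO 3 and WT 2 the counts were 32 and 0. The 7 Mcm genes of the list, which encode the replicative helicase and its activator Mcm10, were higher, by 0.66 to 1.53 on the log2 scale, as were all 4 Gins genes of the same machine. Orc1, the largest subunit of the origin recognition complex, had 115, 143 and 88.4 CPM in PKP4-KO and 8.09, 6.54 and 7.59 CPM in WT (log2 fold change 3.96 ± 0.28 (SE), edgeR adjusted p = 1.5e-12). Cdt1, which loads the helicase at origins, had 105, 109 and 95.4 CPM in PKP4-KO and 30, 23.4 and 34.7 CPM in WT. The groups were apart by a wide margin for both genes, and the spread within a group was small beside it. Cdc45 (log2 fold change 1.7), the dUTPase Dut (1.67), the replication-linked Uhrf1 (1.61), E2f1 (1.49) and Pcna (1.07) were higher too. The exception was Rfc3, a clamp loader subunit, at -0.5, which was not called without the pair of libraries (edgeR adjusted p = 0.068).

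Genes of mitosis followed with a smaller shift. Of 38 tested, 24 were called higher and 1 lower, with a median of 0.7, and 22 and 1 without the pair of libraries. The microtubule depolymerase Kif2c had 98.1, 111 and 84.5 CPM in PKP4-KO and 22.1, 17.3 and 25.3 CPM in WT, and the anaphase activator Cdc20 had 244, 229.6 and 215 CPM in PKP4-KO and 65.1, 60.9 and 78.3 CPM in WT. Plk1, the kinase that drives entry into mitosis, had 207, 211 and 165 CPM in PKP4-KO and 72.8, 67.2 and 87.5 CPM in WT. None of the 3 genes overlapped between the groups, and PKP4-KO was higher in each. Ccnb1 (1.32), Aurkb (1.24), Cdk1 (1.16) and the pathway regulator Foxm1 (0.65) were also called higher. The proliferation marker Mki67 was not called (-0.16, edgeR adjusted p = 0.78), nor were Top2a (0.47) and Cenpe (-0.1). Pttg1, the securin that holds back separase, was lower, at -1.79. Of 28 p53 targets and inhibitors of cyclin-dependent kinases, 10 were higher and 6 lower, and 7 and 5 without the pair of libraries. The inhibitor Cdkn2c had 93.1, 100.2 and 57.2 CPM in PKP4-KO and 12.4, 7.83 and 9.89 CPM in WT, and the p53 gene Trp53 was higher by 0.81, while Plk3 (-2.04) and Perp (-1.21) were lower. Cdkn1a was not called (-0.56, edgeR adjusted p = 0.091).

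Replication genes are commonly driven by E2F factors from a site such as TTTGGCGC or TTTCCCGC, and mitotic genes by the DREAM and MuvB complexes through the cell cycle homology region TTTGAA together with CCAAT boxes. The promoters shown here are those of members called higher with large changes that carry these letters. The windows run from 250 bases before to 50 bases after the start site in RefSeq on GRCm38.p6, a build older than that of the counts, and were searched on both strands, with the motif found in capitals. Shown are Cdt1 (chr8:122567765-122568064, forward strand, E2F site), Kif2c (chr4:117178723-117179022, reverse strand, cell cycle homology region), Cdc20 (chr4:118437294-118437593, reverse strand, the same) and Plk1 (chr7:122159185-122159484, forward strand, the same):
Cdt1: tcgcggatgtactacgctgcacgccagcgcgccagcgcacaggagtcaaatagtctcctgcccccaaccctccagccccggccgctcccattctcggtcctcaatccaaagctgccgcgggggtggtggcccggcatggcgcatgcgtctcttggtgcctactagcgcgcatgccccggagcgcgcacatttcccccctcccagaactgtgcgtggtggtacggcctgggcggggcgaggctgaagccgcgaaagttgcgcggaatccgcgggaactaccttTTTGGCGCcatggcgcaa
Kif2c: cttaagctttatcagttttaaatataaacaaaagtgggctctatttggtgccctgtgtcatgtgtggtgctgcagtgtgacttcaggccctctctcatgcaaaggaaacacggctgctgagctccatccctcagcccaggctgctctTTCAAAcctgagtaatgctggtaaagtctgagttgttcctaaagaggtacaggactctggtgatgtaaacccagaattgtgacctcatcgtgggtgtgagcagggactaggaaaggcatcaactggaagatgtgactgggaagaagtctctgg
Cdc20: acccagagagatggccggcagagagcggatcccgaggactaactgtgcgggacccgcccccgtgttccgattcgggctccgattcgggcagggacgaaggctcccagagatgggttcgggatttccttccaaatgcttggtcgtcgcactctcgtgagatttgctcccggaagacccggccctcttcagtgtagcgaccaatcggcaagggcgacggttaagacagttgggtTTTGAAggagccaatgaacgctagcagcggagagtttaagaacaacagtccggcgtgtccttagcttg
Plk1: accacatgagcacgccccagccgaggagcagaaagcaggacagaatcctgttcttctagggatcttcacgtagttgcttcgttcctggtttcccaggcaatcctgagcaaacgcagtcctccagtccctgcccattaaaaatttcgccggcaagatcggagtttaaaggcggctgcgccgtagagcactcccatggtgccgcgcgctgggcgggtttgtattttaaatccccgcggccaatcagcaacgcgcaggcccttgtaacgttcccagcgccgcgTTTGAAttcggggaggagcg
With the start site as base 0, the first base of the motif lay at 32 in Cdt1, -103 in Kif2c (TTCAAA, the motif on the other strand), -18 in Cdc20 and 30 in Plk1. Which start site these cells used was not tested, and the Kif2c window may lie inside the gene as annotated on GRCm39. As E2F sites only TTTGGCGC and TTTCCCGC were searched, and other forms of the site would be missed. Such a site stood in 10 of 31 replication genes with a promoter in the table (32.3%, against 1.8% of 27025 genes) and in 0 of 31 mitotic genes. Of the called replication genes 9 of 28 held it, so that called genes held it about as often as the whole list. Rfc3, called lower, held an E2F site at 0. The window of Orc1, the largest change of the list, held CCAAT but neither of the E2F forms searched. The cell cycle homology region stood in 23 of 31 mitotic genes (74.2%, against 20.2% of all genes) and in 4 replication genes (12.9%). CCAAT, whose letters are contained in neither of the others, stood in 71% of the mitotic and 61.3% of the replication genes, against 41.1% of all genes. These are matches of letters and say nothing about which factor was bound.

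Most genes of late differentiation were lower. Of 78 tested genes of the cornified envelope, its enzymes and its regulators, 53 were called lower and 5 higher, with a median of -2.03, against 22.2% called lower over all genes. The counts were 51 and 5 without the pair of libraries. Corneodesmosin (Cdsn), which holds cornified cells together, had 18.6, 14.2 and 16.6 CPM in PKP4-KO and 698, 615 and 606 CPM in WT (log2 fold change -5.28 ± 0.24 (SE), edgeR adjusted p = 2e-16). Involucrin (Ivl), an early envelope protein, had 6.01, 4.89 and 3.03 CPM in PKP4-KO and 56.8, 56 and 61.5 CPM in WT. Every WT library exceeded every PKP4-KO library for both genes, and the fitted folds were 38.9 and 12.4. The transglutaminases that cross-link the envelope, Tgm1, Tgm3 and Tgm5, were all lower (-3.59, -0.51 and -1.89). Of the list's 18 late cornified envelope (Lce) genes 13 were lower and 0 higher, by up to 3.75, and of its 12 small proline-rich (Sprr) genes 7 were lower and 2 higher. Sprr2d had 11.1, 5.69 and 14.5 CPM in PKP4-KO and 245, 391 and 201 CPM in WT, and Sprr3 had 1.77, 0.627 and 1.33 CPM in PKP4-KO and 67.7, 81.5 and 39 CPM in WT. Members of these families have near-identical copies side by side, so that reads may be split between them. The lipid barrier enzymes Aloxe3 (-3.97), Abca12 (-2.72), Elovl4 (-2.95) and Cers3 (-2.0) were lower, as were the kallikrein proteases Klk7 (-3.45) and Klk14 (-3.38) and the transcription factors Klf4 (-1.29), Grhl3 (-1.17), Ovol1 (-2.22) and Zfp750 (-2.42).

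Not every suprabasal gene was lower. Krt1, a keratin that marks the first suprabasal layer, had 143, 104 and 82.5 CPM in PKP4-KO and 5.15, 8.55 and 6.73 CPM in WT (log2 fold change 4.02 ± 0.53 (SE), edgeR adjusted p = 3.2e-07). Its partner Krt10 had 135, 110.2 and 80.9 CPM in PKP4-KO and 55.7, 57.2 and 40.2 CPM in WT. Both were higher in each PKP4-KO library than in any WT library. Klk8 (1.24) and the near-identical Sprr2a1 and Sprr2a2 (1.01 and 0.9) were the other members called higher. The profilaggrin gene Flg, at 1.56, was not called (edgeR adjusted p = 0.18), and loricrin (Lor) was lower, at -2.34.

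Of 24 basal keratinocyte genes 5 were higher and 9 lower, and 4 and 9 without the pair of libraries. Krt15, a keratin of basal and stem-like cells, had 824, 638 and 489 CPM in PKP4-KO and 43, 46.6 and 36.2 CPM in WT. The basal master regulator Trp63 had 184, 249.5 and 131 CPM in PKP4-KO and 97.7, 51 and 76 CPM in WT, and the AP-2 factor Tfap2c had 7.08, 7.11 and 6.28 CPM in PKP4-KO and 0.412, 0.503 and 0.816 CPM in WT. All 3 genes were higher in every PKP4-KO library. Krt5 was higher by 0.6, whereas its partner Krt14 was not called (-0.1, edgeR adjusted p = 0.63). The laminin chain Lama3 was lower (-1.44), Lamb3 was not called (-0.06), and the secreted Dkk3 was lower, with 0.466, 0.544 and 0.295 CPM in PKP4-KO and 15.2, 15.3 and 18.1 CPM in WT. Of 14 keratins of stressed or simple epithelia 12 were lower and 1, Krt7, was higher (0.66), with a median of -2.48 and counts of 11 and 1 without the pair of libraries. Krt13 had 12.1, 11.4 and 11.5 CPM in PKP4-KO and 156, 169 and 111 CPM in WT, and Krt80, a keratin of late differentiation, had 28.2, 28.9 and 32.1 CPM in PKP4-KO and 369.9, 337 and 299.7 CPM in WT. Neither gene overlapped between the groups. The simple-epithelial keratins were at low levels. Krt8 had 39, 31 and 39 counts in WT and 0, 0 and 1 in PKP4-KO, and Krt19 had 30, 31 and 27 counts in WT and 1 in each PKP4-KO library, so that they were at least 12.8-fold and 10.6-fold lower against a floor of 3 counts per library. Krt18, the partner of Krt8, had at most 5 counts in any library and was not called.

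**Figure D2:**
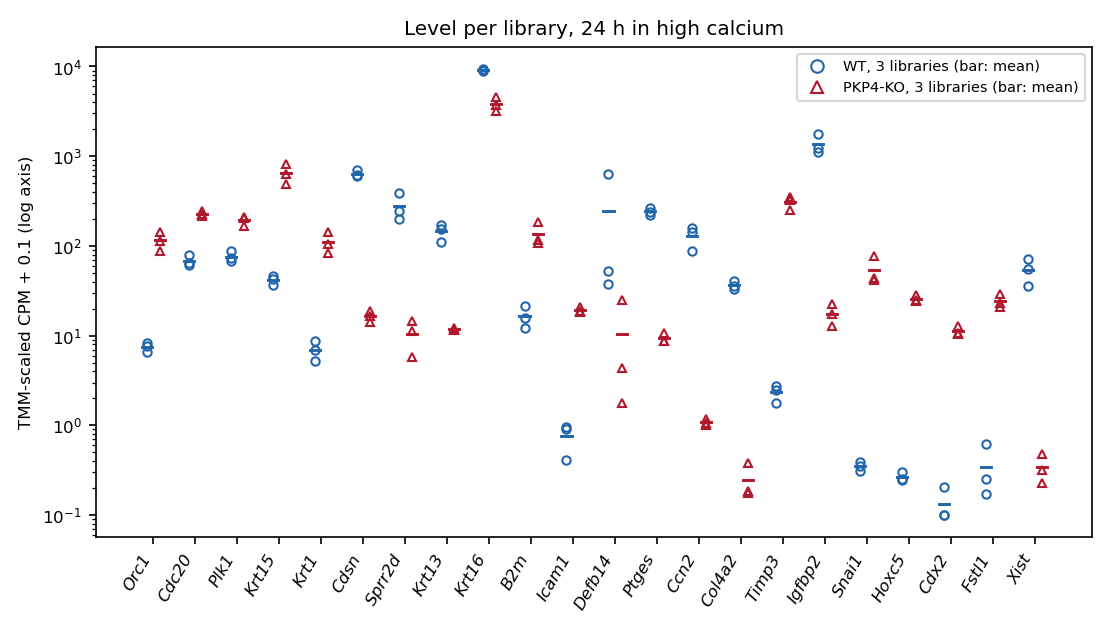
The y axis is the level of each of 22 genes (TMM-scaled CPM + 0.1, log axis) in the 3 WT libraries (blue circles) and the 3 PKP4-KO libraries (red triangles), with bars at the group means. The genes were chosen with their values known, so that the lack of overlap between the groups only describes this choice. Defb14 had the widest spread, with 639 CPM in WT 2 against 37.9 and 52.3 CPM in the other WT libraries.

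Cholesterol genes were either lower or not called. Of 26 tested genes for its synthesis and uptake 16 were lower and 0 higher, with a median of -0.79, and 15 and 0 without the pair of libraries. Nsdhl, which removes a methyl group late in the pathway, had 28.3, 31.6 and 36 CPM in PKP4-KO and 98.6, 119.9 and 97.3 CPM in WT, and Mvd, the decarboxylase of the mevalonate step, had 12.6, 11.7 and 12.6 CPM in PKP4-KO and 32.6, 39 and 40.1 CPM in WT. Every WT library was higher for both genes, by 3.29-fold and 3.03-fold in the fit. Insig1 (-0.93), Cyp51 (-0.89) and Fdps (-1.41) were lower as well. Fatty acid genes moved both ways, with 5 higher and 10 lower of 26, and 5 and 8 without the pair of libraries. The desaturase Scd1 had 35.6, 47.2 and 45.2 CPM in PKP4-KO and 2.88, 2.37 and 0.204 CPM in WT, and the NADPH source Me1 had 7.46, 7.91 and 5.25 CPM in PKP4-KO and 90.8, 57.7 and 65.7 CPM in WT. Scd1 was higher in every PKP4-KO library and Me1 in every WT library. Elovl6 was higher (2.1), Acsl1 (-1.71) and Acly (-0.88) were lower, and the synthase Fasn was not called (-0.12, edgeR adjusted p = 0.7).

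Genes of energy metabolism and ribosome assembly were more often called higher than lower. Of 30 genes of glycolysis and the hypoxia response 15 were higher and 4 lower, with a median of 0.54 and counts of 15 and 3 without the pair of libraries. The enzymes Pkm, with 3216, 3206 and 2601 CPM in PKP4-KO and 1456, 1426 and 1649 CPM in WT, and Ldha, with 2549, 2560 and 2385 CPM in PKP4-KO and 1152, 1260 and 1364 CPM in WT, were higher in every PKP4-KO library than in any WT library. Carbonic anhydrase Car12 had 46.3, 51.6 and 52.7 CPM in PKP4-KO and 5.82, 3.88 and 3.21 CPM in WT, and the platelet phosphofructokinase Pfkp was higher by 1.97. The hypoxia targets split, with P4ha1 (2.1), Bnip3 (1.7) and Vegfa (1.32) higher and Ndrg1 (-1.88) and Egln3 (-0.83) lower. Of 43 nuclear-encoded genes of oxidative phosphorylation 14 were higher and 0 lower, with a median of 0.38 and the same counts without the pair of libraries. The share called was 32.6%, all of it higher, against 42.8% of all genes called either way and 20.7% called higher. Cytochrome c (Cycs) had 717, 547 and 918 CPM in PKP4-KO and 205, 418 and 281 CPM in WT, and Sdhd, a subunit of complex II, had 227, 246 and 226 CPM in PKP4-KO and 84.6, 94.6 and 99.2 CPM in WT. Of 42 ribosome biogenesis genes 22 were higher and 1 lower, with a median of 0.55, among them Mrto4 (1.22), Nip7 (1.13), Bop1 (1.0) and the RNA polymerase I subunits Polr1a (0.85), Polr1b (0.58), Polr1c (0.89) and Polr1e (0.85). Without the pair of libraries 20 were higher and 0 lower, and the exception, Nop14, was not called (edgeR adjusted p = 0.19).

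Genes that present antigen were more often higher than lower. Of 16 tested, 9 were higher and 2 lower, with a median of 1.63, or 1.37 when genes at or under 3 counts in a group were set to the bound that 3 counts allow. The counts were 8 and 1 without the pair of libraries. The 6 tested H2 genes of the major histocompatibility complex in this list were higher. Outside the list H2-M9 went the other way, with 36, 43 and 27 counts in WT and 2, 0 and 1 in PKP4-KO, at least 13-fold lower. B2m is the light chain of the class I members, and not of the class II gene H2-Eb1. It had 107, 116 and 184 CPM in PKP4-KO and 15.6, 21.2 and 12 CPM in WT. The non-classical H2-T23 had 19.1, 18.5 and 14.9 CPM in PKP4-KO and 1.34, 2.52 and 3.57 CPM in WT. PKP4-KO was higher without overlap for both, although H2 genes are a family of close copies whose reads can be shared. The peptide transporter Tap1 was lower (-1.35), and Tapbp was lower as well (-0.63) but not without the pair of libraries (edgeR adjusted p = 0.072). Interferon-stimulated genes had no common direction. Of 43 listed, 19 had enough counts to be tested, 5 were higher (among them Oas1a, Bst2, Irf1 and Trim25), 3 were lower (Ddx58, Parp12 and Isg20), and the counts were 4 and 3 without the pair of libraries. The share called, 42.1%, was near the 42.8% of all genes. Irf1 had 11.7, 10.8 and 12 CPM in PKP4-KO and 2.94, 3.52 and 2.34 CPM in WT, while Ddx58, an RNA sensor, had 12.6, 13.5 and 10.2 CPM in PKP4-KO and 76.3, 55.2 and 67.9 CPM in WT.

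Of 42 cytokines and inflammatory mediators 8 were higher and 13 lower, with the same counts without the pair of libraries. The adhesion receptor Icam1 had 18.4, 20.8 and 18.9 CPM in PKP4-KO and 0.309, 0.862 and 0.816 CPM in WT, and the chemokine Ccl2, with 1, 1 and 2 counts in WT, rose at least 16.1-fold. Prostaglandin E synthase (Ptges) had 8.67, 8.58 and 10.5 CPM in PKP4-KO and 223, 240.0 and 267 CPM in WT. The groups were far apart for both Icam1 and Ptges, in opposite directions. The interleukins stored in keratinocytes, Il1a (-2.48), Il18 (-3.04) and Il33 (-2.69), were lower, as was the receptor antagonist Il1rn (-1.99). The defensin Defb14 had 4.29, 1.67 and 24.8 CPM in PKP4-KO and 37.9, 639 and 52.3 CPM in WT, so that its mean in WT rested largely on WT 2. It stayed lower without the pair of libraries (log2 fold change -3.92, edgeR adjusted p = 0.02).

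The stress programmes gave a mixed picture. Of 33 integrated stress response genes 8 were higher and 6 lower, with a median of 0.07 that turned negative when PKP4-KO 1, PKP4-KO 2 or WT 2 was left out. With 42.4% of its genes called, this list was near the 42.8% of all genes, and the unfolded protein response list, at 38.5%, was below it. The counts were 6 and 4 without the pair of libraries. The serine and folate enzymes Shmt2, with 426, 419 and 466 CPM in PKP4-KO and 175, 206 and 194 CPM in WT, and Mthfd2 (1.0) were higher, as were Trib3 (1.27) and Atf4 (0.45), whereas Chac1 (-0.78) and Pycr1 (-1.35) were lower. Of 26 unfolded protein response genes 1 was higher, the disulfide isomerase Pdia3 (0.97), and 9 were lower, among them Xbp1 (-1.3) and the chaperone Hspa5 (-0.74), and the counts were 1 and 8 without the pair of libraries. Of 41 NRF2 targets and glutathione genes 13 were higher and 12 lower, and 13 and 11 without the pair of libraries. Carbonyl reductase Cbr1 had 22.9, 21.3 and 21.4 CPM in PKP4-KO and 0.979, 0.575 and 0.764 CPM in WT, and Gsta1 had 22.1, 17.6 and 16 CPM in PKP4-KO and 113, 135 and 105 CPM in WT. The alpha-class glutathione transferases Gsta1 to Gsta4 that were tested were all lower, while Gstm1 (1.26), Mgst1 (2.27) and Txnrd1 (1.49) were higher and Nqo1 (-0.63) and Hmox1 (-0.6) were lower. The transcription factor itself, Nfe2l2, was not called (0.23, edgeR adjusted p = 0.29).

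**Figure D3:**
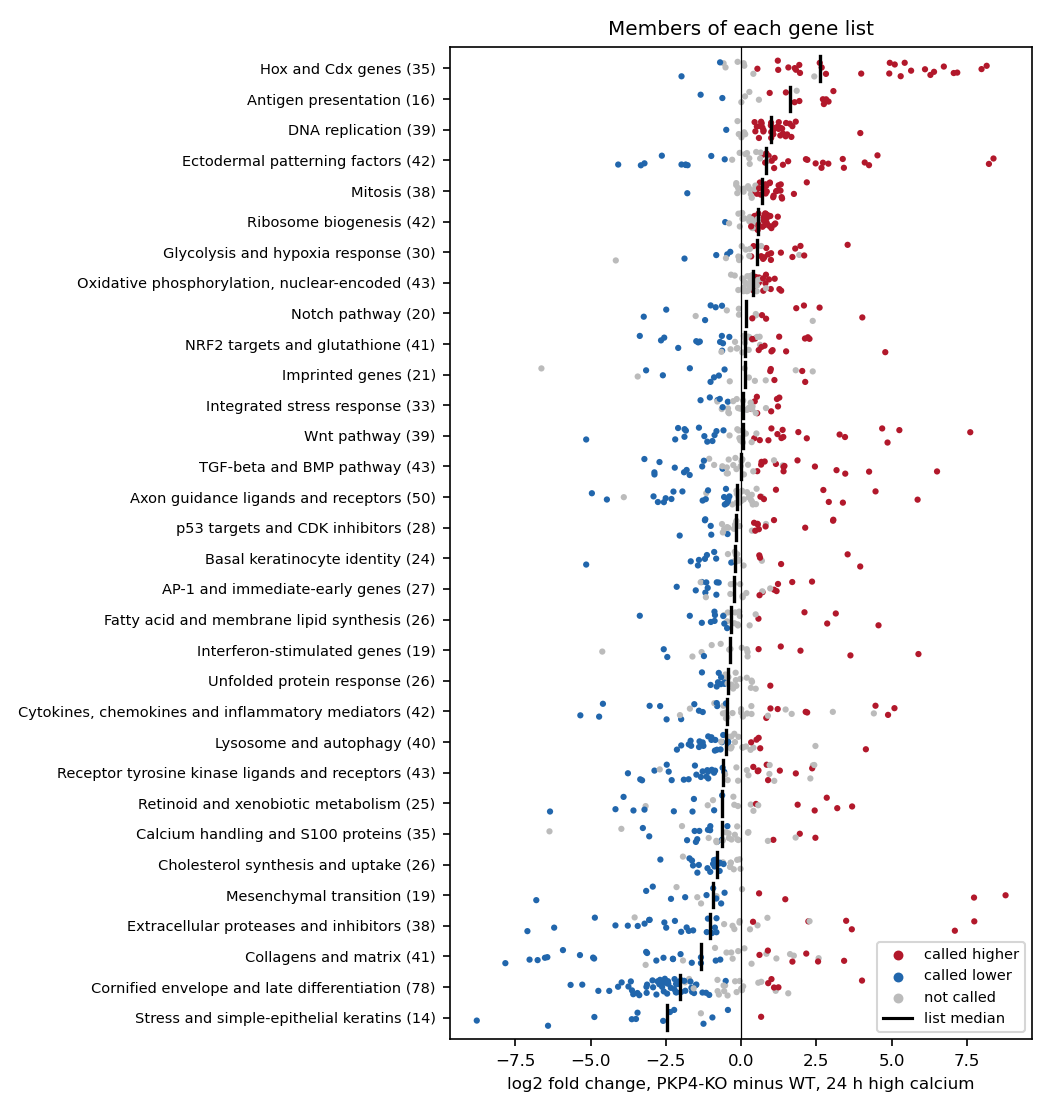
Each point is a tested gene of the list named on the y axis (number tested in brackets), placed by its log2 fold change, PKP4-KO minus WT; red and blue points were called higher and lower, grey points were not called, and black bars are list medians. Hox, antigen presentation and replication genes lie to the right of 0 and stress keratins, late differentiation and matrix genes to the left, with medians from 2.61 to -2.48.

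Among signalling genes, growth factor ligands and their receptors were more often lower than higher. Of 43 receptor tyrosine kinase ligands and receptors 22 were lower and 8 higher, with a median of -0.62, and 21 and 5 without the pair of libraries. The EGF receptor ligand Tgfa had 20.1, 20.7 and 12.7 CPM in PKP4-KO and 164, 104 and 128 CPM in WT, and Ereg had 1.12, 2.43 and 1.03 CPM in PKP4-KO and 20.7, 11.4 and 15.8 CPM in WT. Both were lower in every PKP4-KO library. Btc (-3.76), Hbegf (-1.91) and Areg (-1.75) were lower as well, Epgn was higher (0.57), and the receptor Egfr was not called (-0.16, edgeR adjusted p = 0.53). Of the feedback phosphatases, Dusp4 (-1.49) and Dusp5 (-2.41) were lower and Dusp6 (1.28) was higher. Of 27 AP-1 and immediate-early genes 7 were higher and 9 lower, with Jun (32.1, 34 and 23.8 CPM in PKP4-KO and 8.71, 8.33 and 10.7 CPM in WT) and Fos (4.01, 4.89 and 2.29 CPM in PKP4-KO and 19.3, 11.6 and 19.2 CPM in WT) on opposite sides. Jun was higher and Fos lower in every PKP4-KO library. The AP-1 counts were 6 and 7 without the pair of libraries.

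In the Notch pathway, which promotes the first steps of epidermal differentiation, 7 of 20 tested genes were higher and 6 lower, and 6 and 5 without the pair of libraries. The ligands Jag2, with 111, 103 and 88.9 CPM in PKP4-KO and 24, 21.9 and 25.3 CPM in WT, and Dll1 (1.83), and the non-canonical ligand Dlk2 (2.61) were higher. The target Hey1 was higher as well, with 23, 41 and 15 counts in PKP4-KO and 2, 0 and 2 in WT. The receptor Notch3 had 3.4, 2.43 and 2.0 CPM in PKP4-KO and 24.9, 24.6 and 25 CPM in WT, and Notch2 was lower (-0.85), while Notch1 (0.49) and Hes1 (0.49) were not called (edgeR adjusted p = 0.078 and 0.14). The ligands and the receptor that moved thus went in opposite directions. Of 39 Wnt pathway genes 16 were higher and 13 lower, but 11 and 11 without the pair of libraries, where the sign of the list's median also changed. The receptor Fzd4, with 30, 28 and 20 counts in PKP4-KO and 0 in WT, was at least 7.74-fold higher, and the ligand Wnt3 had 26, 25 and 9 counts against 1, 2 and 2. The feedback genes Nkd2 (43, 19 and 29 counts against 0, 1 and 2) and Rnf43 (3.45) were higher. Axin2 (-1.22), Apcdd1 (-1.88), Wnt7a (-1.88) and the receptors Ror1 (-2.19) and Ror2 (-2.1) were lower.

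Of 43 TGF-beta and BMP pathway genes 14 were higher and 11 lower, but 10 and 11 without the pair of libraries. The secreted follistatin-like Fstl1 had 20.6, 23 and 29.2 CPM in PKP4-KO and 0.515, 0.0718 and 0.153 CPM in WT, and the BMP antagonist Nog had 1.3, 0.878 and 1.55 CPM in PKP4-KO and 9.63, 6.61 and 11 CPM in WT. Fstl1 was near the floor of detection in WT and Nog was low in PKP4-KO. The BMP targets Id1 (0.66), Id3 (1.41) and Smad6 (2.45) were higher and Id2 was lower (-1.24). The insulin-like growth factor binding protein Igfbp2 had 22.7, 12.6 and 17.1 CPM in PKP4-KO and 1110, 1225 and 1768 CPM in WT (log2 fold change -6.29 ± 0.42 (SE)), while Igfbp3 was higher, with 448, 483 and 498 CPM in PKP4-KO and 217, 214 and 249.6 CPM in WT. Igfbp2 was 78.3-fold lower in PKP4-KO in the fit, while Igfbp3 was 2.1-fold higher. Of 50 axon guidance genes, which also act in epithelial contact signalling, 19 were lower and 8 higher, and 15 and 6 without the pair of libraries. Of the 13 semaphorins in the list 8 were lower, among them Sema3c with 39, 48.5 and 38.6 CPM in PKP4-KO and 336, 177 and 234 CPM in WT, and 1, Sema4c, was higher (1.16). The ephrin Efnb2 was lower (-2.77), and Robo1 (2.91) and Robo2 (5.86) were higher.

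Matrix genes were mostly lower. Of 41 tested collagen and matrix genes 21 were lower and 6 higher, and 20 and 6 without the pair of libraries. Their median was -1.34, or -0.69 with genes at or under 3 counts set to their bound, and -0.85 without the pair of libraries, so that its size depends on both choices. Ccn2, a matricellular target of YAP and TGF-beta, had 1.07, 0.92 and 0.96 CPM in PKP4-KO and 144, 87.2 and 158 CPM in WT (log2 fold change -7.03 ± 0.46 (SE), edgeR adjusted p = 4.9e-13). Col4a1, the basement membrane collagen that shares its promoter with Col4a2, had 0.14, 0.167 and 0.148 CPM in PKP4-KO and 13.4, 13.7 and 16.8 CPM in WT. Every WT library lay far above every PKP4-KO library for both genes, by 131-fold and 91.8-fold in the fit. Fn1 (-3.16), Vcan (-6.44) and Sparc (-2.58) were lower, and Postn, at 0, 1 and 0 counts in PKP4-KO, was at least 15.7-fold lower. Col16a1 (3.42), Col12a1 (1.7), Tnc (2.16) and Thbs2 (2.56) were higher. Of 38 extracellular proteases and inhibitors 22 were lower and 6 higher, and 20 and 4 without the pair of libraries. The membrane serine proteases Prss8 (-3.21), St14 (-1.6) and Tmprss11e (-4.86) were lower, and the serpin Serpinb9b had 1.82, 0.92 and 1.11 CPM in PKP4-KO and 103, 93.9 and 91.3 CPM in WT. The metalloproteinases Mmp2 (3.49) and Mmp3 (2.23) and the inhibitor Serpine2 (3.68) were higher, as was Timp3. Of 19 genes of mesenchymal transition 10 were lower and 4 higher, and 8 and 3 without the pair of libraries. The regulator Prrx1 had 55, 76 and 46 counts in PKP4-KO and 0 in WT and was at least 17.5-fold higher, whereas the mesenchymal products Vim (-2.33) and Acta2 (-6.81) and the epithelial Epcam (-2.94) were lower. The fibroblast marker sum was lower in PKP4-KO too (0.167 to 0.606 against 2.14 to 4.84 CPM), and its part in the matrix result was not tested.

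Genes of positional identity gave the list with the highest median. Of 35 tested Hox, Cdx and cofactor genes 26 were higher and 2 lower, with a median of 2.61, or 1.96 with genes at their bound, and 23 and 2 without the pair of libraries. Hox proteins mark the position of a cell along the body axis, and skin cells keep the pattern of the site they came from. Of 26 Hox genes 23 were higher and 0 lower, in each of the 4 clusters: 7 of 7 tested in Hoxa, 7 of 9 in Hoxb, 6 of 7 in Hoxc and 3 of 3 in Hoxd. Of the 52 genes in the whole list, 35 passed the filter over the 12 groups. Of these, 8 had 3 counts or fewer in every library of PKP4-KO or of WT. A gene with almost no reads in WT could not have been called lower, so that the 0 is no result for such genes. Hoxc5 had 24.7, 24 and 28.1 CPM in PKP4-KO and 0.154, 0.144 and 0.204 CPM in WT, and Hoxa7 had 16.5, 19.7 and 55.7 CPM in PKP4-KO and 0.154, 1.08 and 0.204 CPM in WT. The WT libraries held almost no reads of either gene. Of 42 ectodermal patterning factors 22 were higher and 10 lower, with a median of 0.82 and counts of 21 and 10 without the pair of libraries. All 6 tested Dlx genes were higher, by 0.72 to 8.23. The homeobox gene Barx2 had 79.7, 86.2 and 148 CPM in PKP4-KO and 5.05, 9.7 and 3.67 CPM in WT, and Irx2 had 55.1, 62.8 and 38.6 CPM in PKP4-KO and 7.37, 4.6 and 8.92 CPM in WT, both without overlap. Msx1 (2.15), Msx2 (4.25), Foxe1 (2.48) and Gli1 (3.38) were higher and Sox11 (-3.33), Irx3 (-3.21), Gata6 (-1.98) and Cux1 (-1.84) were lower. The pups' body sites of origin are not in the labels.

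Retinoid metabolism changed at several steps. Of 25 genes for retinoids and xenobiotics 6 were higher and 10 lower, and 6 and 9 without the pair of libraries. Cyp26b1, which degrades retinoic acid, had 109.7, 116 and 95.3 CPM in PKP4-KO and 20.7, 18.5 and 19.8 CPM in WT, and Dhrs9, which makes retinaldehyde, had 0.373, 0.544 and 0.369 CPM in PKP4-KO and 11.3, 7.26 and 5.5 CPM in WT. The retinol transporter Stra6 was higher (3.19) and the binding protein Crabp2 (-2.24) and Aldh1a3 (-1.62) were lower. Of 40 lysosome and autophagy genes 21 were lower and 5 higher, with a median of -0.51, and 18 and 3 without the pair of libraries. Ctsl, a cathepsin, had 106, 111 and 125 CPM in PKP4-KO and 332, 428 and 384 CPM in WT. It was lower in every PKP4-KO library. Gusb, another lysosomal enzyme, went the other way, with 11.1, 11.6 and 9.75 CPM in PKP4-KO and 0.927, 0.215 and 0.612 CPM in WT. Of 35 calcium-handling and S100 genes 13 were lower and 3 higher, and 12 and 2 without the pair of libraries. The share called in either direction was 45.7%, against 42.8% of all genes. The store-operated channel Orai1 had 9.46, 11.5 and 9.23 CPM in PKP4-KO and 23.5, 28.8 and 33.5 CPM in WT, and Trpv3 (-1.03), Piezo1 (-1.03) and Atp2b1 (-1.46) were lower, while Trpv4 (1.07) was higher. Of 21 imprinted genes, which are read from 1 parental copy, 5 were higher and 7 lower, with Plagl1 (-3.16) on the lower side and Cdkn1c (2.13) and Peg3 (2.03) on the higher, and 4 and 6 without the pair of libraries.

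Of 15 genes often used as references 6 were higher and 1 lower (46.7% called, against 42.8% of all genes), and 6 and 0 without the pair of libraries. Gusb and B2m, given above, were the extremes, and Tbp (0.98) and Pgk1 (0.67) were higher. Eef1a1 (0.07, edgeR adjusted p = 0.71) and Hprt (-0.06, edgeR adjusted p = 0.88) were not called. Outside protein-coding genes, 120 of 967 lncRNA genes were higher and 187 lower, both smaller shares than the 20.7% and 22.2% of all genes tested. Xist and the pair Gm47283 and Erdr1 had the largest drops, the latter 2 being near-identical copies at the ends of the sex chromosomes whose reads cannot be assigned to either. X4933404O12Rik had 12.8, 13.8 and 14.7 CPM in PKP4-KO and 1.49, 1.44 and 1.63 CPM in WT and was among the largest gains. Of 1216 processed pseudogenes 102 were higher and 34 lower, again smaller shares than over all genes.

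Some genes were detected in 1 genotype alone at this depth. In 55 genes every PKP4-KO library had at least 20 counts and every WT library at most 3, and in 54 genes the reverse held, 46 of them protein-coding in each case. With at least 50 counts the numbers were 13 and 12. Against the floor of 3 counts per library, the folds were at least 64.7 for the homeobox gene Cdx2 with PKP4-KO above WT, at least 50.5 for Hoxc4, at least 33.9 for the hair keratin Krt25 and at least 32.6 for the mitochondrial Chchd10. Cdx2, a gut epithelial factor, had 223, 255 and 173 counts in PKP4-KO and 2, 0 and 0 in WT, while 10 of the 17 gut epithelium markers stayed at or under 3 counts in all 6 libraries. On the other side, the water channel Aqp5 was at least 95-fold lower, Prr15l at least 68.8-fold, the cadherin Cdh6 at least 57.5-fold and the flippase Atp8b1 at least 49.3-fold. Several of the 54 genes have similar names and lie on chromosome 2, among them Gm14295, Gm14296, Gm14305, Gm14308, Gm14325, Gm14326, Gm14410 and Gm14434. Whether their reads and their changes are separate was not tested. In Rescue cells at the same time and medium, 15 of the 55 genes were at or under 3 counts in all 3 libraries and 7 had at least 20 counts in each, and of the 54 genes 8 and 11.

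Changes were not spread evenly over the genome. The chromosome medians ran from -0.4 on X (34 higher and 165 lower of 482), -0.34 on 5 (103 and 355 of 976) and -0.34 on 18 to 0.24 on 4 (292 and 167 of 943) and 0.25 on 14. In windows of 20 Mb with at least 20 tested genes, 8 of 138 had a median under -0.5 and 2 had one over 0.5. The highest was chromosome 4 from 100000001 to 120000000 of GRCm39, with a median of 0.87 and 79 genes higher and 19 lower of 161. It holds Orc1 (108436540 to 108473245), Kif2c (117016830 to 117039836), Cdc20 (118290098 to 118294610), Cdkn2c (109517957 to 109524386) and Magoh (107736943 to 107744621), all described above as higher. Plk3 (116985852 to 116991226), described above as lower (-2.04), lies in the same window. The second was chromosome 2 from 140000001 to 160000000, with a median of 0.72 and 83 genes higher and 16 lower of 168, which holds Snx5 (144092025 to 144112885). Pkp4 (58991088 to 59185552) lies in the window of chromosome 2 from 40000001 to 60000000, with a median of -0.57 and 1 gene higher and 14 lower of 42, and the next window had a median of -0.64. The sign of the window median was the same at 24 h in LCM and at 72 h in HCM in 10 of these 10 windows. With the median of its chromosome subtracted from each gene, the list medians were 1.03 for replication, 0.72 for mitosis, -1.94 for late differentiation and 2.47 for Hox and Cdx genes. This subtraction does not remove the shift of a single window, such as 0.87 on chromosome 4 with its median of 0.24. The part of the window shifts in the list medians was not tested. Genotype and the origin of the cells cannot be told apart in these shifts.

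**Figure D4:**
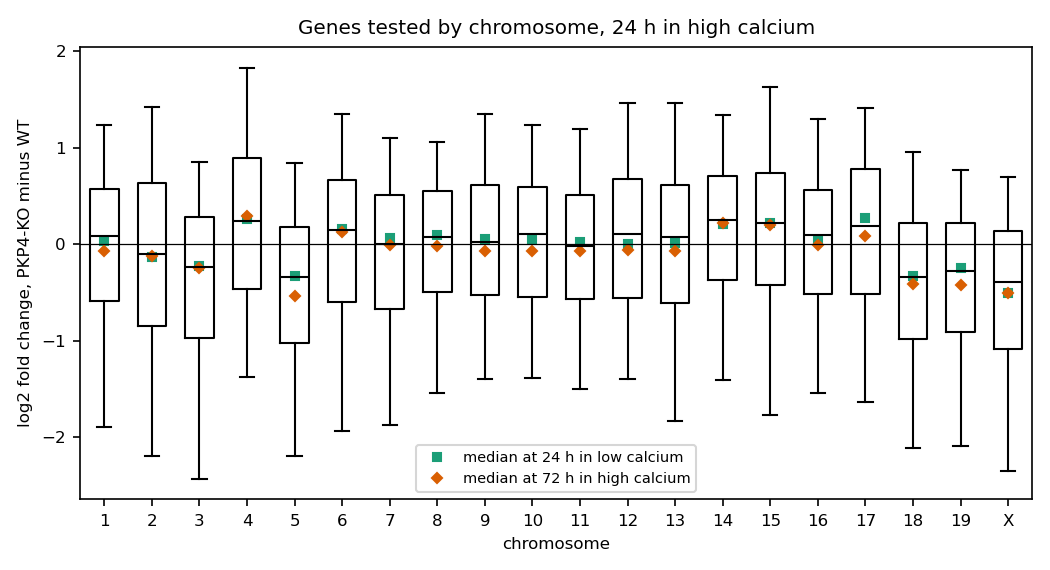
Boxes give the interquartile range of the log2 fold changes (PKP4-KO minus WT, y axis) of tested genes on each chromosome (x axis) at 24 h in HCM, with the median as a line and whiskers to the 10th and 90th percentiles; squares and diamonds are the medians at 24 h in LCM and at 72 h in HCM. Chromosomes 4, 14 and 15 lie above 0 and 3, 5, 18, 19 and X below it in the 3 conditions.

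The same genotypes were compared in the other media and times, with separate libraries. At 24 h in LCM 6083 genes (40.2%) were called, and 4513 of them were called at 24 h in HCM in the same direction, which is 69.7% of the HCM and 74.2% of the LCM calls, while 40 had the opposite direction. At 72 h in HCM 7831 genes (51.8%) were called and 3691 shared their direction, 57% and 47.1% of the calls, while 528 had the opposite one. At 72 h in LCM 6809 genes (45.1%) were called, 3918 in the same and 292 in the opposite direction. The calls of 2817 genes had 1 direction throughout the 4 conditions, 1281 higher and 1536 lower. Timp3, Igfbp2, Ccn2, Pclaf and Xist were among genes with large log2 fold changes in the 3 conditions compared here, for example 7.1, 7.34 and 7.19 for Timp3 and 6.72, 6.79 and 6.61 for Pclaf at 24 h HCM, 24 h LCM and 72 h HCM. At 24 h in HCM alone 796 genes were called, but for only 55 of them did the difference from 24 h LCM, and for 335 that from 72 h HCM, pass its own test.

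The effect of the genotype differed between HCM and LCM at 24 h for 607 genes (4.02%), with 186 differences positive (1.23%) and 421 negative (2.79%). Without PKP4-KO 3 and WT 2 of 24 h HCM, 370 genes passed. Without TMM factors 366 passed and the median of all genes moved by 0.29, with 158 negative, so that the split between directions depends on the scaling. Late differentiation genes made up 23 of the negative differences and 0 of the positive ones, and their median was -0.94 in LCM against -2.03 in HCM. Cnfn, an envelope protein, was at 1.59 in LCM and -2.14 in HCM, and Cldn23, a claudin, at -2.44 and -6.23. Cholesterol genes gave 9 negative differences of 26 (median -0.01 in LCM), for example Mvd (0.02 and -1.6), and integrated stress response genes 13 of 33 (median 0.61 in LCM). On the positive side were 8 replication genes, 5 mitotic genes and 5 Notch pathway genes. Cyp26b1 moved by 0.41 in LCM and 2.44 in HCM, and Trp73, the p63 relative, by 1.6 and 3.48.

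Between 24 h and 72 h in HCM the effect differed for 4018 genes (26.6%), 2390 positive (15.8%) and 1628 negative (10.8%), and for 3297 genes without PKP4-KO 3 and WT 2 of 24 h HCM. Without TMM factors the count was 7328, with 6613 positive, and the median of all genes moved by 0.82, so that directions in this contrast hold only relative to that shift. Of 78 late differentiation genes 48 had a negative and 8 a positive difference, and their median was -0.02 at 72 h, with 26 higher and 28 lower. The stress keratins followed, with 8 negative differences of 14, and Krt6a, for instance, was at -0.96 at 24 h and 0.75 at 72 h. Of 39 replication genes 28, and of 38 mitotic genes 28, had a positive difference and 0 a negative one, and their medians at 72 h were -0.08 and -0.32. Cdt1 was higher by 1.81 at 24 h and stood at -0.29 at 72 h. The unfolded protein response (12 negative of 26) and glycolysis and hypoxia genes (14 negative of 30, median 1.59 at 72 h) had negative differences, and Ndrg1 went from -1.88 to 3.81. Of 39 Wnt pathway genes 19 had a positive and 0 a negative difference, with Wnt3a at 1.34 and -2.11. Matrix genes had medians of -1.34 and -1.85 and antigen presentation genes 1.63 and 1.22, with 12 of 41 and 1 of 16 members passing the test of the difference.

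**Figure D5:**
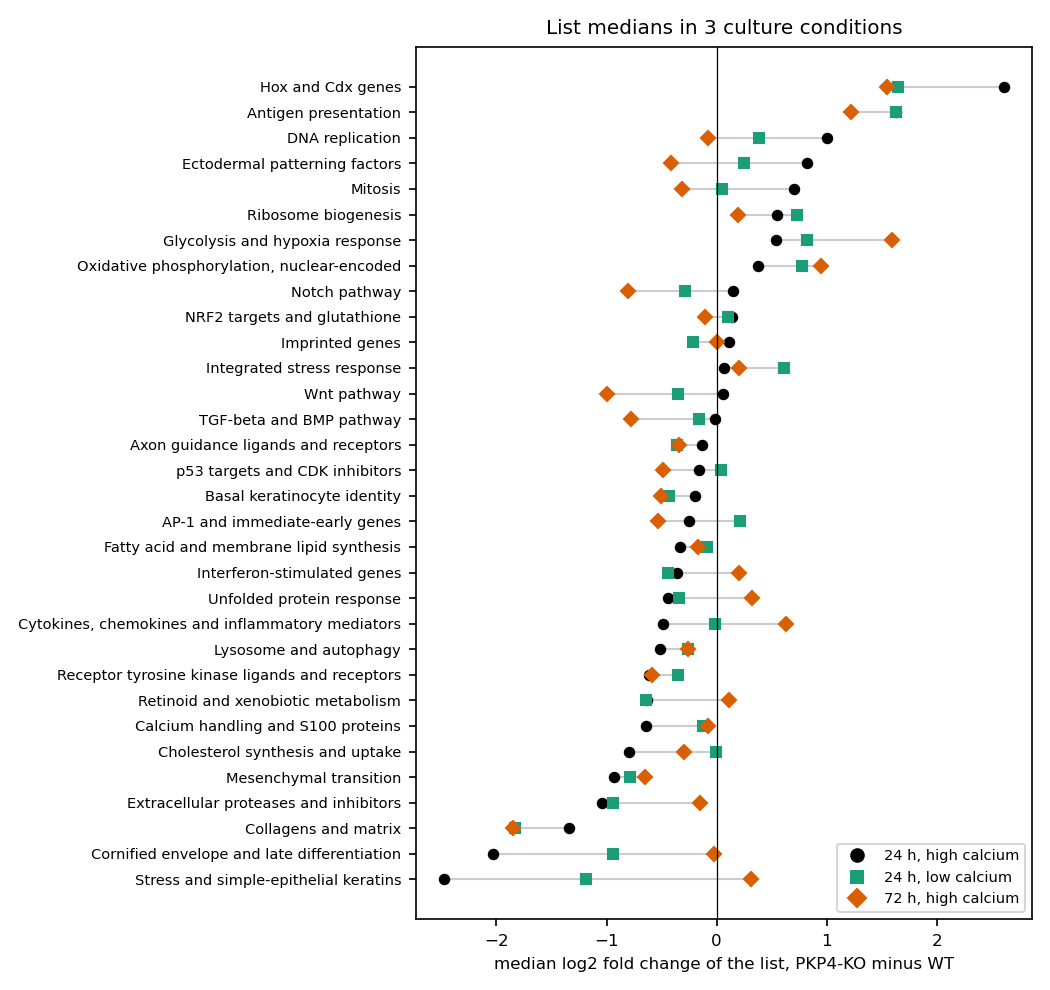
Points give the median log2 fold change (PKP4-KO minus WT, x axis) of each list (y axis) at 24 h in HCM (black circles), 24 h in LCM (green squares) and 72 h in HCM (orange diamonds). Late differentiation moved from -2.03 through -0.94 to -0.02, while matrix and antigen presentation medians kept their sign in the 3 conditions.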

How the data were processed

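Poly(A) RNA of primary mouse keratinocytes was sequenced on strand-specific libraries. The authors aligned the reads with HISAT2 2.1.0 to mm39, extended by the transgene GFP-PKP4, sorted them with SAMtools 1.10 and deposited raw counts per Ensembl gene (GRCm39) from featureCounts 2.0.0, in 1 table with 36 columns matched to the samples by their labels. The strand setting of the counting is not given in the sources used here, so that overlapping and antisense genes are uncertain.

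From these counts, TMM-scaled CPM and edgeR 4.0.16 quasi-likelihood tests (R 4.3.3, limma 3.58.1) were computed in 1 fit over all 12 groups, as in the study's own use of edgeR and TMM, with genes filtered by filterByExpr (15114 of 55358 kept) and p-values adjusted by Benjamini-Hochberg over all of them. Differences between conditions were interaction contrasts of the same fit. The fit was tested on simulated counts. Library totals of 13794211 to 20732407 counts set the precision, and levels near 3 counts were treated as a floor that covers counting error only. Pkp4 was compared with an exact permutation test.

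The 44 gene lists, the comparison itself and the rule for named genes were chosen with earlier results of these data known. By that rule the text took, per list, the 3 largest called changes each way with at least 5 CPM in the higher group and the members needed to describe the rest. It also took the protein-coding genes with the 12 largest changes each way (at least 10 CPM, no overlap), the 10 largest gains and losses in CPM, the 5 largest differences between conditions each way and 3 lncRNA genes each way. Further genes named within a list were chosen after their values were seen. Other settings were DESeq2 1.42.0, at least 10 counts, no filter, no TMM factors, only the groups compared, a replicate block, and each library left out. Leaving out PKP4-KO 3 and WT 2 together was chosen after seeing the data. Promoters came from RefSeq on GRCm38.p6. The Rescue and 72 h LCM libraries entered the fit and are described only where they were set beside this comparison.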

Additional observations from a re-analysis of the deposited data

Results flagged for a closer look

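The effect of the genotype at 24 h in HCM differed by edgeR's interaction test from that at 24 h in LCM in 607 genes and from that at 72 h in HCM in 4018 genes. Of the 5 largest negative differences from LCM, Aqp5 had -5.353 on the log2 scale, Prr15l -4.599, the EGF receptor ligand Areg -3.886, Cldn23 -3.783 and Cnfn -3.733. On the positive side, Cyp26b1 had 2.037, the catenin relative Ctnnal1 1.977, Trp73 1.874, E2f2 1.818 and the death receptor Fas 1.769.

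Against 72 h in HCM, the 5 largest negative differences were -8.608 for the claudin Cldn17, -8.403 for the homeobox gene Cphx1, -7.828 for the inflammasome adaptor Pycard, -7.509 for Sprr2b and -7.44 for Crnn, which encodes cornulin. The positive ones were 4.738 for the Notch modulator Dtx4, 4.335 for Gpsm1, 3.788 for Lce1g, 3.704 for Trp73 and 3.453 for Wnt3a.

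The row for the GFP-PKP4 transgene, which the WT and PKP4-KO cells do not carry by their labels, held 36, 26 and 112 counts in the PKP4-KO libraries and 48, 113 and 48 in the WT libraries. The highest value was 113, and the highest in each group came from the library that stood apart from the rest, PKP4-KO 3 and WT 2. The part of this row in the other results was not tested.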

How the results depend on the processing

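Of 6472 calls, 73.6 to 99.3% were shared by each alternative and 0 had the opposite sign: DESeq2 gave 6776 calls, at least 10 counts 5206, no filter 5734, no TMM factors 5742, only the groups compared 4821, PKP4-KO 3 and WT 2 both left out 5471, and single leave-outs 5624 to 6146 (higher 2733 to 2984, lower 2891 to 3285). Pkp4 stayed at 18.9 to 21.1% of WT. Of 259 named genes (205 tested with at least 10 counts, 251 with only the groups compared) 0 reversed where tested, and up to 20 lost their call in one alternative.

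The 607 differences from LCM became 370 without PKP4-KO 3 and WT 2, 366 without TMM factors, 349 without the filter, 255 with only the groups compared, 903 with DESeq2 and 417 to 578 in leave-outs. Positive ones (186) became 305 with DESeq2, 110, 86 and 79 without both libraries, without the filter and with only the groups compared, and 100 to 198 in leave-outs (PKP4-KO HCM 2, 100; PKP4-KO LCM 1, 105; WT HCM 2, 114; WT LCM 3, 121). Negative ones (421) became 260, 263 and 176 in the same order, 158 without TMM factors, and 275 (WT LCM 1) to 380. The 4018 differences from 72 h HCM became 7328 without TMM factors (6613 positive, 715 negative) and 3155 to 4920 in leave-outs (1787 to 2864 positive, 1347 to 2056 negative). Apart from what smaller sets of genes or samples imply, the cause was not tested.

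Same-numbered libraries deviated with r = 0.27, -0.649 and -0.395, so that the numbers do not pair them. With a replicate block 5998 genes were called, 92.0% of the 6472 among them, and 431 and 3443 differences.

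Depth limits statements on genes near 3 counts per library.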
